A study of Mus musculus with 17 samples.

Results

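Immediate early genes are the genes that a cell transcribes first after a stimulus, before any new protein is made. A set of 39 such genes was followed in RNA-seq count tables of macrophages sorted from mouse synovium, out of 22859 genes counted. The set was chosen by name and holds 9 kinds of gene: 7 AP-1 subunits counting Atf3 (Fos, Fosb, Fosl2, Jun, Junb, Jund, Atf3), 2 small Maf factors (Maff, Mafk), 3 Egr factors (Egr1, Egr2, Egr3), 4 Klf factors (Klf2, Klf4, Klf6, Klf10), 3 Nr4a receptors (Nr4a1, Nr4a2, Nr4a3), 4 genes of the Ier and Csrnp kind (Ier2, Ier3, Ier5, Csrnp1), 5 dual-specificity phosphatases (Dusp1, Dusp2, Dusp4, Dusp5, Dusp6), 4 mRNA decay or antiproliferative factors (Zfp36, Zfp36l1, Btg1, Btg2) and 7 genes of growth, stress and cytokine feedback (Myc, Gadd45a, Gadd45b, Ppp1r15a, Mcl1, Socs3, Cebpd). All 39 were in the table and all 39 passed the filter on low counts, which kept 15272 genes.

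The study made 17 libraries in 6 groups. Macrophages were sorted by surface protein into 3 populations, which were LYVE1+CX3CR1+, then MHCII+CD11c-, then MHCII+CD11c+. Every mouse, controls included, was an Fcgr2b knockout by its label; Fcgr2b is the inhibitory Fc receptor for IgG. Treated mice received circulating immune complexes (IC), made of ovalbumin and polyclonal anti-ovalbumin IgG, by intravenous injection and were sampled 8 h later, and control mice were healthy. The labels name no injection for the controls, so effects of IC cannot be told apart from those of injection, handling or time of sampling. Each group had 3 libraries, except MHCII+CD11c+ after IC, which had 2. Mice were 8 to 20 weeks old and of both sexes, and the tissue was digested with collagenase before sorting. The sources used here do not say which libraries pooled mice, so p-values measure the spread between libraries, part of which may be technical.

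Fos and Jun proteins pair into AP-1, a factor that binds DNA as a dimer, and Egr, Klf and Nr4a factors are other early transcription factors. Their genes are switched on by kinase cascades through factors already present in the cell, such as serum response factor and CREB, and their mRNAs are short-lived. Several products close the loop: Dusp phosphatases inactivate MAP kinases, Zfp36 proteins hasten mRNA decay and Socs3 limits cytokine signalling. In macrophages such genes answer Fc receptor and Toll-like receptor signals, and they also respond to tissue digestion and cell handling.

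Total counts per library ranged from 2301913 to 7248939. LYVE1+CX3CR1+ libraries after IC were shallower and had counts for fewer genes, 11547 to 14068, than their controls, 16974 to 19926. The labels were checked against markers, without a list for dendritic cells. Summed levels of 8 macrophage markers were lower in MHCII+CD11c+ controls than in the other controls, as given below. Itgax, which encodes CD11c, lay at 0 to 4.68 CPM (counts scaled to library size) in LYVE1+CX3CR1+ libraries, 8.24 to 16.05 CPM in MHCII+CD11c- libraries and 275 to 443 CPM in MHCII+CD11c+ libraries. Summed levels of 5 MHCII+ subset markers were 66.4 to 673 CPM in LYVE1+CX3CR1+ libraries and at least 12161 CPM in all others. Fcgr2b itself was counted at 69.3 to 248 CPM, with at least 167 counts in every library. The table gives 1 count per gene, so the deleted part of that gene could not be viewed separately. Summed markers of other cells reached at most 252 CPM for neutrophils, 118 CPM for fibroblasts, 34.6 CPM for endothelium, 16.6 CPM for lymphocytes and 14.7 CPM for muscle and fat.

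Promoters of 3 members that figure in the results below are shown first, chosen because each holds a binding motif known from early genes. Most members with a window lack these motifs, as counted below. The sequences are from RefSeq (GRCm38.p6) and hold the 250 bases before the transcript start, written 5′ to 3′ on the strand of the gene, with the motif in capitals. Egr2 and Dusp5 carry CArG boxes, the binding motif of serum response factor (CC, then 6 letters that are each A or T, then GG). Dusp1 carries a CRE, the motif of CREB (TGACGTCA).
Egr2, chr10:67537619-67537868, plus strand: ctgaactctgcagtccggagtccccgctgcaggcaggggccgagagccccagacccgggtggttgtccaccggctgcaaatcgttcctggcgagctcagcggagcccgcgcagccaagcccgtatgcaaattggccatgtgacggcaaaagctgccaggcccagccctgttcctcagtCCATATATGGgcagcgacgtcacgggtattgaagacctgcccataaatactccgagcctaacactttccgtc
Dusp5, chr19:53528895-53529144, plus strand: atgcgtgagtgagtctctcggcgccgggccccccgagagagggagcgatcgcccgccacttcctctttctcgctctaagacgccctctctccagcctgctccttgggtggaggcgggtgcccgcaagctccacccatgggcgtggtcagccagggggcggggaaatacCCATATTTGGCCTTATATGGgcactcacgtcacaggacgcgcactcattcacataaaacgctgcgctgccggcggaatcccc
Dusp1, chr17:26508473-26508722, minus strand: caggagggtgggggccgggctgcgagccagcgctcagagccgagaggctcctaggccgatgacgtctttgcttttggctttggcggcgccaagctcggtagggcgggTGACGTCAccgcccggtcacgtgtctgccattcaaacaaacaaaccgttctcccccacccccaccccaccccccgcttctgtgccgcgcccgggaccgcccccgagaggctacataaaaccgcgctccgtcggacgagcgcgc
RefSeq gives 5 windows for Egr2, of which 4 hold a CArG box; the window shown is the first of those by position, for a start inside the gene span given below. The Egr2 box begins 72 bases before that start. Dusp5 holds a pair of adjoining boxes that begin 82 and 72 bases before it, and the Dusp1 CRE begins 143 bases before it.

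At least 1 window was at hand for 32 of the 39 members, and a member or gene was counted where any of its windows held the motif. Both strands were searched, and of the motifs only TATAAA can lie inside another, the CArG box. A CArG box stood in 3 of the 32, namely Dusp5, Egr2 and Zfp36, against 1.62% of the 27025 genes with a window. TGACGTCA stood in 4 (Btg2, Dusp1, Maff and Ppp1r15a; 1.77% of all genes). The AP-1 site TGACTCA or TGAGTCA stood in 1, Csrnp1, against 5.16%. The Egr site GCGTGGGCG or GCGGGGGCG stood in 10, among them Fosb, Fosl2, Klf2 and Nr4a1, against 3.48%. TATAAA stood in 5, including Fos and Nr4a2, against 14.3%. A match describes letters in these windows and does not show that a factor binds there. No window was at hand for Egr1, Egr3, Klf10, Ier2, Dusp4, Myc and Cebpd.

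Early gene mRNA was abundant in every library, controls included. All cells were digested and sorted first, so levels in the intact tissue cannot be told apart from a response to that handling. The 39 members took 2.44% to 3.46% of all counts of a library, and 29 of them lay above the 90th percentile of mean level among the genes tested (16 above the 99th). Per kilobase of exon, Fos was highest with a mean over groups of 1399 CPM per kb (group means 1064 to 1745). Atf3 followed with 776, Jun with 740, Junb with 670, Zfp36 with 609, Dusp1 with 557 and Egr1 with 534 CPM per kb. At the low end were Myc with 12.6, Gadd45a with 5.95 and Dusp4 with 2.03 CPM per kb. The ranges of the group means of Atf3 (616 to 986), Jun (378 to 984) and Junb (576 to 777) overlapped, so these neighbours are not ordered by these data. The median SD of members within groups was 0.24 on the log2 scale, against 0.64 over all genes tested. This comparison was not matched for level, and the median member lay at percentile 97.9 of mean level. The part of level in the gap was not tested.

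After 8 h of IC, few members differed from control. In LYVE1+CX3CR1+ macrophages 2 members, Egr2 and Egr3, were lower, and 0.963% of all genes were called in that comparison (0.812% as lower). Averaged over the 3 subsets, 5 members were called, Egr2 and Egr3 lower and Klf2, Dusp1 and Dusp2 higher, against 3.35% of all genes (1.7% higher and 1.65% lower). Calls rest on edgeR's quasi-likelihood test with Benjamini-Hochberg adjustment over all genes tested, at an adjusted p under 0.05. The average uses the same libraries as the separate subsets and is not further evidence. Its test treats libraries of different subsets as independent. Control libraries with the same replicate number, however, deviated together across subsets in these genes (r of 0.34 to 0.65 in all 9 pairs). If such libraries share a source, the SE and p-values of the average may be too small. In the reported fit, the calls of Klf2, Dusp1 and Dusp2 after IC rest on the average alone. In bulk libraries a change in the share of cells that carry an mRNA cannot be told from a change in the amount per cell.

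Egr2 and Egr3 encode zinc finger factors that follow Egr1 in the early wave. Egr2, at chr10:67535475-67542188 (GRCm38, plus strand), stood at 157, 314 and 214 CPM in LYVE1+CX3CR1+ controls and at 75.2, 93.5 and 87.9 CPM after IC. It stood at 249, 468 and 268 against 148, 223 and 228 CPM in MHCII+CD11c- and at 376, 439 and 325 against 212 and 272 CPM in MHCII+CD11c+ macrophages. Every IC library lay below every control library of its own subset. In LYVE1+CX3CR1+ macrophages Egr2 fell 2.66-fold (log2 fold change -1.41 ± 0.25 SE, edgeR adjusted p = 0.0093), and on average over the subsets 1.90-fold (-0.93 ± 0.15, edgeR adjusted p = 0.00105). Within MHCII+CD11c- and MHCII+CD11c+ macrophages alone it did not pass the test, with log2 fold changes of -0.72 ± 0.25 and -0.65 ± 0.28.

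Egr3, at chr14:70077203-70082614 (plus strand), gave 72.0, 136 and 75.9 CPM in LYVE1+CX3CR1+ controls and 25.7, 39.0 and 40.7 CPM after IC. In MHCII+CD11c- macrophages it gave 83.0, 176 and 114 against 58.5, 117 and 83.1 CPM. In MHCII+CD11c+ macrophages it gave 86.8, 103 and 88.1 against 45.8 and 55.5 CPM. The libraries overlapped in MHCII+CD11c- macrophages and in neither of the others. Egr3 fell by 1.43 ± 0.30 on the log2 scale in LYVE1+CX3CR1+ macrophages (edgeR adjusted p = 0.0225) and by 0.94 ± 0.18 on average (edgeR adjusted p = 0.00351).

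Control replicate 2 was the highest control for Egr2 and Egr3 in all 3 subsets. With the 3 control libraries of that number left out, a choice made after seeing the data, Egr2 in LYVE1+CX3CR1+ macrophages stood at -1.03 (edgeR adjusted p = 0.0151) and Egr3 at -0.99 (edgeR adjusted p = 0.127, no longer called). The averaged changes were then -0.65 for Egr2 (edgeR adjusted p = 0.00235) and -0.66 for Egr3 (edgeR adjusted p = 0.0241), both still called. Leaving out 1 library ended both calls in LYVE1+CX3CR1+ macrophages when it was control 2 (Egr2 at -1.12, edgeR adjusted p = 0.0541; Egr3 at -1.07, edgeR adjusted p = 0.128) or IC 3 (-1.39 and -1.50, edgeR adjusted p = 0.0593 and 0.072), and the Egr3 call alone when it was IC 1 or IC 2 (edgeR adjusted p = 0.0896 and 0.0522). Egr1 was not called. Egr1, the founding member, stood at 2175, 3073 and 2697 CPM in LYVE1+CX3CR1+ controls and at 2091, 1946 and 2247 CPM after IC, with overlap. It gave 3832, 2983 and 4175 against 2850, 3224 and 3267 CPM in MHCII+CD11c- and 1623, 1318 and 1262 against 1354 and 1515 CPM in MHCII+CD11c+ macrophages, again with overlap. Its averaged log2 fold change was -0.18, with an interval of 2 SE from -0.37 to 0.01 (edgeR adjusted p = 0.339).

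The members that rose on average were a pair of phosphatases and a Klf factor. Dusp1, which inactivates p38 and JNK, gave 1497, 1285 and 1672 CPM in LYVE1+CX3CR1+ controls and 2073, 1705 and 2296 CPM after IC. It gave 1374, 1586 and 1575 against 2354, 2021 and 1863 CPM in MHCII+CD11c- and 1744, 1700 and 1759 against 2120 and 2333 CPM in MHCII+CD11c+ macrophages. All IC libraries lay above all controls of their subset. The averaged log2 fold change was 0.42 ± 0.09 (edgeR adjusted p = 0.00796), while the 3 subset values of 0.45, 0.46 and 0.36 did not pass the test on their own.

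Klf2, a zinc finger factor known to restrain macrophage activation, gave 717, 737 and 739 CPM in LYVE1+CX3CR1+ controls and 760, 907 and 916 CPM after IC. In MHCII+CD11c- macrophages the values were 555, 449 and 446 against 636, 660 and 601 CPM, and in MHCII+CD11c+ macrophages 317, 295 and 252 against 342 and 437 CPM. Again no IC library overlapped the controls of its subset. The averaged change of Klf2 was 0.35 ± 0.09 on the log2 scale (edgeR adjusted p = 0.0325).

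Dusp2, a phosphatase for ERK and p38 found mainly in blood cells, was a low gene here. It gave 15.0, 19.2 and 18.8 CPM in LYVE1+CX3CR1+ controls and 9.95, 20.1 and 41.9 CPM after IC, so the libraries overlapped. In MHCII+CD11c- macrophages it gave 25.8, 39.8 and 36.1 against 61.6, 89.6 and 46.0 CPM, and in MHCII+CD11c+ macrophages 55.9, 54.1 and 76.0 against 112 and 138 CPM. In both MHCII+ subsets the IC libraries were all higher. The averaged log2 fold change was 0.80 ± 0.21 (edgeR adjusted p = 0.0358). The calls for Klf2 and Dusp2 were the less firm ones, holding under 20 and 16 of 26 alternative settings, while those for Egr2, Egr3 and Dusp1 held under all 26. The highest adjusted p of both came without MHCII+CD11c+ IC 2, at 0.29 for Klf2 (edgeR adjusted p = 0.221) and 0.75 for Dusp2 (edgeR adjusted p = 0.133).

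**Figure D1:**
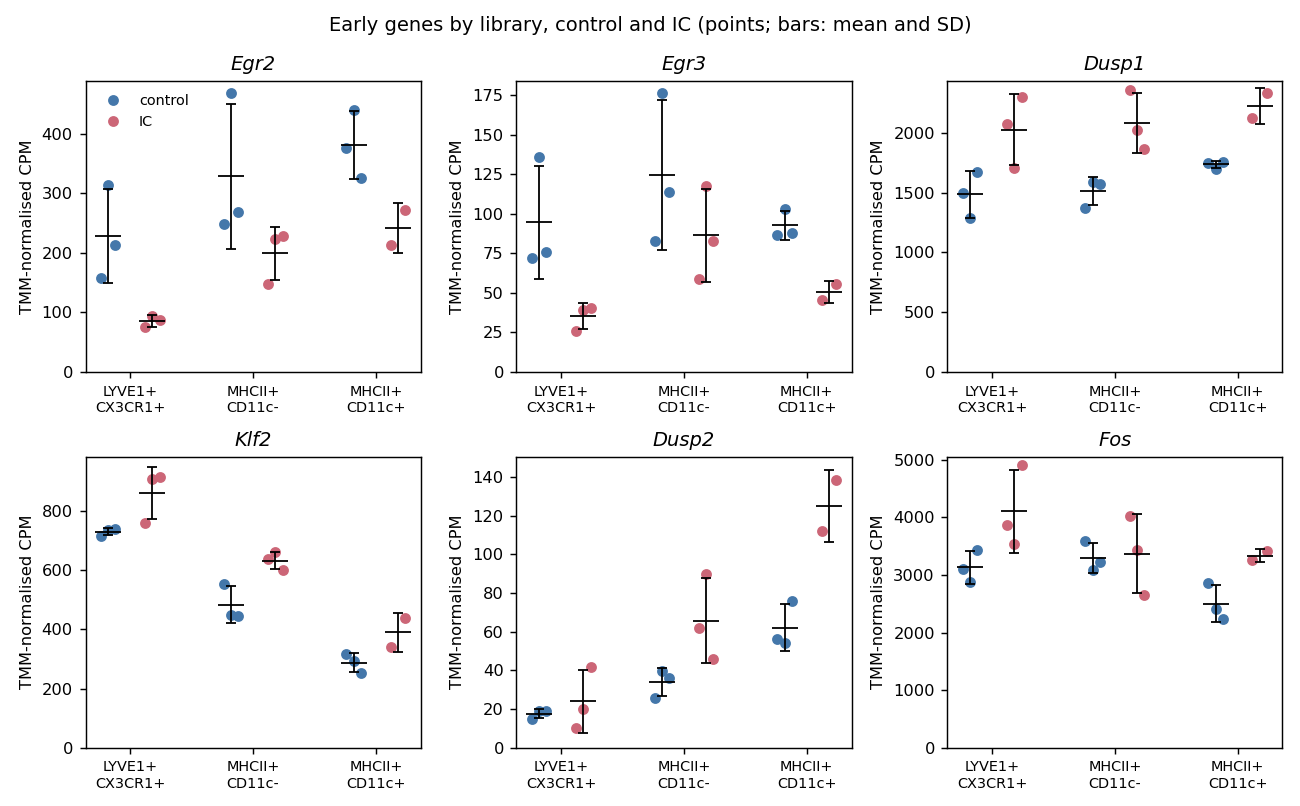
Level of Egr2, Egr3, Dusp1, Klf2, Dusp2 and Fos in each library (TMM-normalised CPM, vertical axis) by subset and treatment; points are libraries, bars the mean and SD. Egr2, at 75.2 to 93.5 CPM after IC against 157 to 314 CPM in LYVE1+CX3CR1+ controls, does not overlap, and neither does Egr3, at 25.7 to 40.7 against 72.0 to 136 CPM.

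Of the 7 AP-1 genes in the set, 0 were called by edgeR after IC in any subset or on average. Jdp2, a factor of the AP-1, Atf and Maf families outside the set, was called higher and is given below. At an unadjusted p under 0.05 the counts were 2 of 7 in LYVE1+CX3CR1+, 0 in MHCII+CD11c-, 2 in MHCII+CD11c+ and 3 on average, where 14.1%, 9.99%, 5.21% and 17.7% of all genes passed. Fos gave 3101, 2869 and 3438 CPM in LYVE1+CX3CR1+ controls and 3870, 3531 and 4914 CPM after IC, with no overlap. In MHCII+CD11c- macrophages it gave 3591, 3083 and 3227 against 4021, 3437 and 2647 CPM, which overlapped, and in MHCII+CD11c+ macrophages 2863, 2403 and 2239 against 3253 and 3413 CPM, which did not. The averaged log2 fold change of Fos was 0.28, with an interval of 2 SE from 0.08 to 0.47 (edgeR adjusted p = 0.121). Fosb, its close relative, had IC libraries above the controls in LYVE1+CX3CR1+ macrophages alone, at 1547 to 2619 against 1310 to 1405 CPM (0.54 ± 0.17 on the log2 scale, edgeR adjusted p = 0.124).

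Jun, the partner of Fos, gave 2701, 2374 and 2753 CPM in LYVE1+CX3CR1+ controls and 2528, 2524 and 2623 CPM after IC. It gave 3597, 2272 and 3417 against 3149, 3574 and 2692 CPM in MHCII+CD11c- and 1521, 906 and 1193 against 1586 and 1521 CPM in MHCII+CD11c+ macrophages. The libraries overlapped in MHCII+CD11c- and LYVE1+CX3CR1+ macrophages, while the lower MHCII+CD11c+ IC library was level with the highest control, and the averaged interval ran from -0.10 to 0.33 on the log2 scale. Junb, a subunit with weaker activation, gave 1418, 1159 and 1439 CPM in LYVE1+CX3CR1+ controls and 1288, 1295 and 1394 CPM after IC. It gave 1680, 1674 and 1597 against 1557, 1581 and 1214 CPM in MHCII+CD11c- macrophages, all IC libraries lower, and 1883, 1309 and 1894 against 1688 and 1888 CPM in MHCII+CD11c+ macrophages. Its averaged log2 fold change was -0.04, with an interval from -0.23 to 0.15.

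Atf3, a stress-induced factor that dampens inflammatory genes, gave 1851, 2484 and 2034 CPM in LYVE1+CX3CR1+ controls and 1629, 2122 and 2348 CPM after IC. It gave 1523, 1720 and 1657 against 1500, 1798 and 1137 CPM in MHCII+CD11c- and 1504, 1243 and 1236 against 1363 and 1514 CPM in MHCII+CD11c+ macrophages. The groups overlapped in all 3 subsets, and the averaged interval for Atf3 ran from -0.24 to 0.18. Nr4a1, an orphan nuclear receptor, gave 761, 1016 and 907 CPM in LYVE1+CX3CR1+ controls and 1396, 1081 and 1098 CPM after IC, all higher. In MHCII+CD11c- macrophages it gave 734, 1239 and 527 against 1064, 947 and 701 CPM and in MHCII+CD11c+ macrophages 1295, 1267 and 1325 against 1207 and 1476 CPM, with overlap in both. Nr4a1 passed the test in no comparison.

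Over the whole set, 0 of 39 members were called within MHCII+CD11c- macrophages by edgeR, where 0.701% of all genes were called. At an unadjusted p under 0.05, 8 members passed there, against 9.99% of all genes. DESeq2 called 0 and limma voom 1, Dusp1. Within MHCII+CD11c+ macrophages, with 2 IC libraries, edgeR called 0 members (0.216% of all genes), 10 members had an unadjusted p under 0.05 (5.21% of all genes), DESeq2 called 0 and limma voom 1, Dusp2. The median size of their log2 change was 0.22, 0.19 and 0.24 in the LYVE1+CX3CR1+ subset, the MHCII+CD11c- subset and the MHCII+CD11c+ subset, against 0.44, 0.41 and 0.36 over all genes tested. These medians were not matched for level either, and most members are high genes. In LYVE1+CX3CR1+ macrophages 9 members had an unadjusted p under 0.05 (14.1% of all genes). The interval of 2 SE lay within 1 log2 unit of no change for 31, 31 and 29 of the 39 members.

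Libraries of a subset did not overlap between IC and control for 5 members higher and 6 lower in LYVE1+CX3CR1+ macrophages (4.95% and 16.7% of all genes). The counts were 4 higher and 6 lower in MHCII+CD11c- macrophages (8.72% and 8.48%), and 12 higher and 5 lower in MHCII+CD11c+ macrophages (14.1% and 9.02%). All 5 Dusp genes were among the 12. The sign of the change was shared by all 3 subsets for 18 of 39 members, 8 lower and 10 higher.

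**Figure D2:**
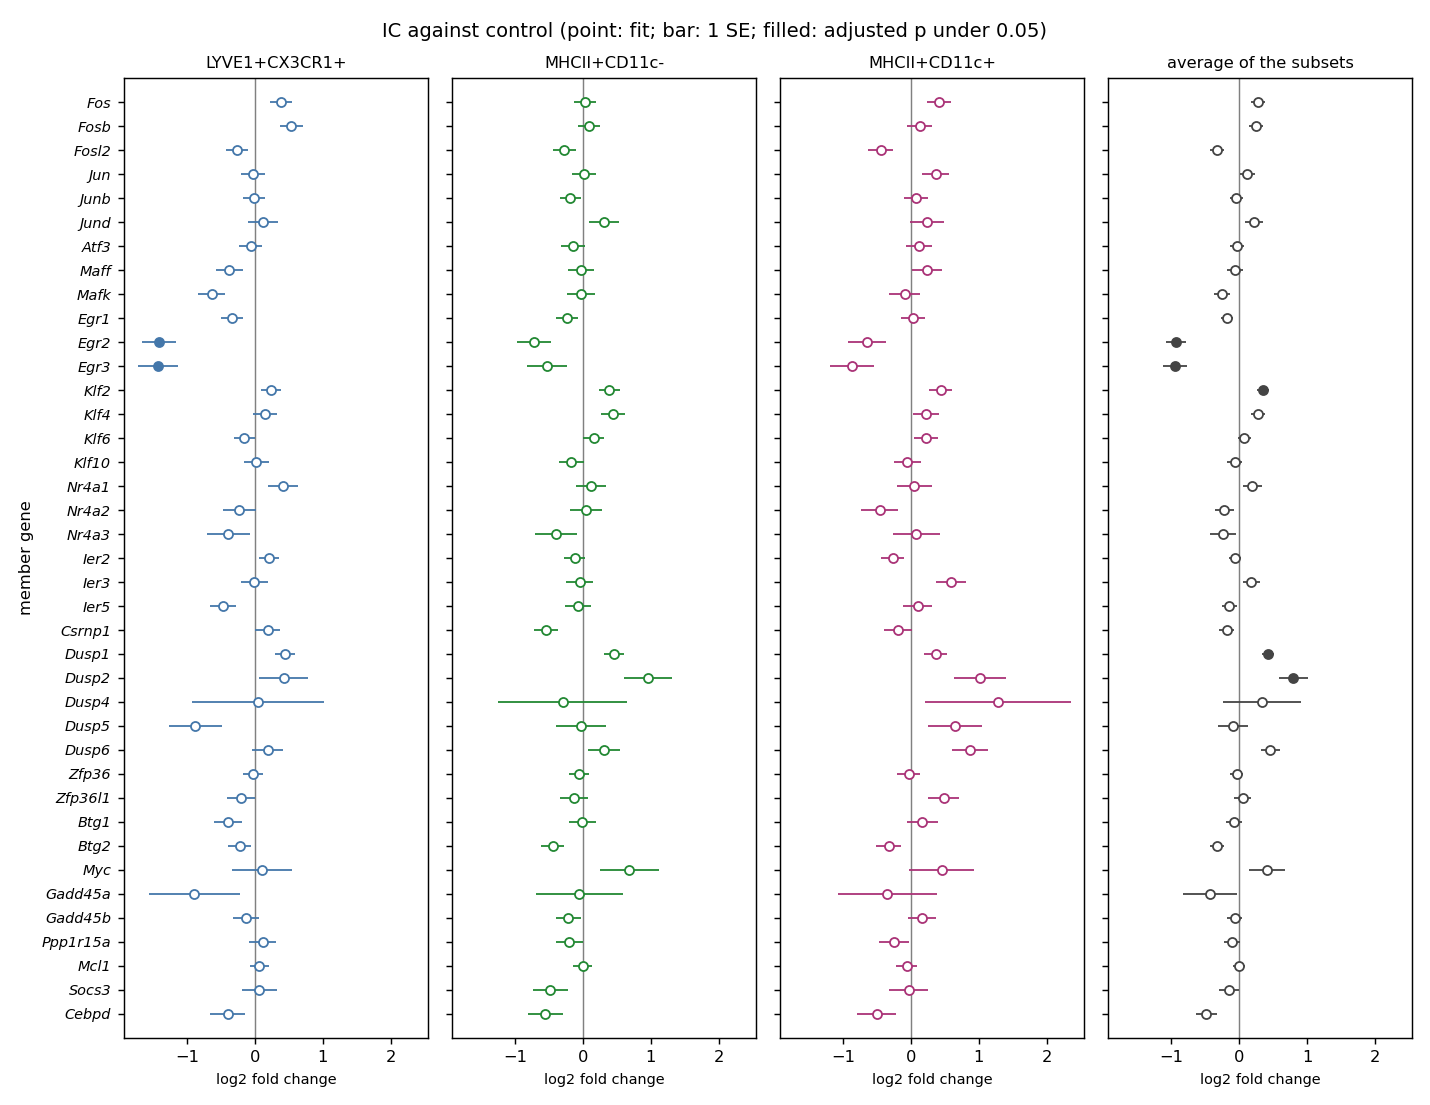
Log2 fold change of IC against control for the 39 members (rows) in each subset and averaged over subsets (horizontal axis, with bars of 1 SE); filled points were called at an adjusted p under 0.05. Filled points are Egr2 and Egr3 in LYVE1+CX3CR1+ macrophages and Egr2, Egr3, Klf2, Dusp1 and Dusp2 in the average.

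Whether the subsets answered IC differently was tested directly. No member was called as different in its response between any 2 subsets by edgeR: 0 of 39 for LYVE1+CX3CR1+ against MHCII+CD11c-, against MHCII+CD11c+, and for MHCII+CD11c+ against MHCII+CD11c-, where 0.0262%, 0.0327% and 0% of all genes were called. In that order, the interval of 2 SE lay within 1 log2 unit of no difference for 29, 23 and 27 of the 39 members. Unadjusted, 3, 4 and 1 members had a p under 0.05, against 7.54%, 8.02% and 3.25% of all genes, and each alternative that was run also called 0. For Egr2 the response in LYVE1+CX3CR1+ macrophages was lower than in MHCII+CD11c- macrophages by -0.69 ± 0.36 on the log2 scale (edgeR adjusted p = 0.701). The call within LYVE1+CX3CR1+ macrophages therefore does not show that the fall of Egr2 was particular to them.

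More members were called between subsets than after IC. A subset difference in the tissue cannot be told apart from a difference in the response to digestion and sorting. Between LYVE1+CX3CR1+ and MHCII+CD11c+ controls 19 of 39 members were called, 7 higher and 12 lower in LYVE1+CX3CR1+ macrophages, against 15.2% of all genes (7.83% higher and 7.4% lower). Between MHCII+CD11c+ and MHCII+CD11c- controls 13 were called, 6 higher and 7 lower in MHCII+CD11c+ macrophages, against 8.66% (3.67% and 4.99%). Between LYVE1+CX3CR1+ and MHCII+CD11c- controls 3 were called, 1 higher and 2 lower in the former, against 1.56% (0.34% and 1.22%). The first and second comparisons share the MHCII+CD11c+ control libraries. Libraries did not overlap for 10 members higher and 13 lower in the first (20.8% and 16.9% of all genes), 10 and 10 in the second (12.6% and 14.9%) and 4 and 14 in the third (11.3% and 10.3%).

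Members called in both comparisons of MHCII+CD11c+ controls numbered 11, of which 6 were highest there (Fosl2, Nr4a2, Nr4a3, Csrnp1, Dusp5 and Btg1) and 5 lowest (Jun, Egr1, Klf2, Ier3 and Dusp6). Within families, members thus lay in opposite directions. Jun stood at 906 to 1521 CPM in MHCII+CD11c+ controls, below all other controls, and its log2 difference was 1.11 ± 0.18 for LYVE1+CX3CR1+ against MHCII+CD11c+ (edgeR adjusted p = 0.000102) and -1.36 ± 0.18 for MHCII+CD11c+ against MHCII+CD11c- (edgeR adjusted p = 2.35e-05). Fosl2, the subunit Fra-2, ran the other way. It gave 1380, 942 and 1586 CPM in MHCII+CD11c+ controls, 509, 476 and 592 CPM in LYVE1+CX3CR1+ controls and 630, 704 and 652 CPM in MHCII+CD11c- controls, with no overlap. Its log2 difference was -1.31 ± 0.17 for LYVE1+CX3CR1+ against MHCII+CD11c+ (edgeR adjusted p = 5.36e-06) and 0.98 ± 0.17 for MHCII+CD11c+ against MHCII+CD11c- (edgeR adjusted p = 0.000386). After IC Fosl2 gave 439, 473 and 401 CPM in LYVE1+CX3CR1+, 547, 529 and 568 CPM in MHCII+CD11c- and 938 and 972 CPM in MHCII+CD11c+ macrophages.

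Other AP-1 and Maf differences were smaller. Atf3 was higher in LYVE1+CX3CR1+ controls than in MHCII+CD11c+ controls by 0.68 ± 0.17 on the log2 scale (edgeR adjusted p = 0.00793), with no overlap of libraries. Maff, a small Maf protein that lacks an activation domain, gave 90.4, 91.4 and 81.4 CPM in LYVE1+CX3CR1+ controls, 106, 129 and 103 CPM in MHCII+CD11c- controls and 148, 122 and 143 CPM in MHCII+CD11c+ controls. After IC Maff gave 75.2, 62.3 and 65.1, then 89.1, 148 and 95.8, then 149 and 176 CPM in the same order of subsets. Its level was lower in LYVE1+CX3CR1+ controls than in MHCII+CD11c+ controls (-0.65 ± 0.20, edgeR adjusted p = 0.0251), without overlap.

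Among the Egr factors, Egr1 lay at 1262 to 1623 CPM in MHCII+CD11c+ controls, below all other controls. Its log2 difference was 0.92 ± 0.16 for LYVE1+CX3CR1+ against MHCII+CD11c+ (edgeR adjusted p = 0.000194) and -1.39 ± 0.16 for MHCII+CD11c+ against MHCII+CD11c- (edgeR adjusted p = 4.36e-06). Egr2 was lower in LYVE1+CX3CR1+ controls than in MHCII+CD11c+ controls (-0.74 ± 0.25, edgeR adjusted p = 0.0497), a marginal call that was lost under 6 of 17 alternative settings, for example without LYVE1+CX3CR1+ control 1 (Egr2 at -0.56, edgeR adjusted p = 0.205) or MHCII+CD11c+ control 2 (-0.62, edgeR adjusted p = 0.141). It was also lost without LYVE1+CX3CR1+ control 3 or MHCII+CD11c+ control 1 or 3. Of the Klf factors, Klf2 stood at 717 to 739 CPM in LYVE1+CX3CR1+ controls, 446 to 555 CPM in MHCII+CD11c- controls and 252 to 317 CPM in MHCII+CD11c+ controls, without overlap. All 3 differences were called in the reported fit: 0.60 ± 0.15 for LYVE1+CX3CR1+ against MHCII+CD11c- (edgeR adjusted p = 0.048), 1.34 ± 0.15 for LYVE1+CX3CR1+ against MHCII+CD11c+ (1.31e-06) and -0.75 ± 0.15 for MHCII+CD11c+ against MHCII+CD11c- (0.00253). The call against MHCII+CD11c- controls was marginal for Klf2 and was lost under 13 of 17 alternative settings, those that left out any 1 control library of either subset among them (edgeR adjusted p = 0.0522 to 0.293). Klf4, which takes part in monocyte differentiation, gave 1359, 1666 and 1413 CPM in LYVE1+CX3CR1+ controls, 1152, 1141 and 788 CPM in MHCII+CD11c- controls and 845, 816 and 586 CPM in MHCII+CD11c+ controls. After IC Klf4 gave 1418, 1570 and 1927, then 1393, 1319 and 1487, then 819 and 928 CPM. Only LYVE1+CX3CR1+ against MHCII+CD11c+ controls was called for it (0.98 ± 0.17, edgeR adjusted p = 0.000274).

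The receptors Nr4a2 and Nr4a3 were high in MHCII+CD11c+ macrophages. Nr4a3 gave 754, 599 and 913 CPM in those controls, 124, 180 and 143 CPM in LYVE1+CX3CR1+ controls and 132, 324 and 149 CPM in MHCII+CD11c- controls. After IC it gave 634 and 958 CPM in MHCII+CD11c+, 133, 127 and 80.9 CPM in LYVE1+CX3CR1+ and 110, 171 and 179 CPM in MHCII+CD11c- macrophages. The MHCII+CD11c+ libraries lay above all others. The log2 difference of Nr4a3 was -2.34 ± 0.31 for LYVE1+CX3CR1+ against MHCII+CD11c+ controls (edgeR adjusted p = 6.5e-05) and 1.90 ± 0.31 for MHCII+CD11c+ against MHCII+CD11c- (edgeR adjusted p = 0.0009). Nr4a2 gave 506, 500 and 619 CPM in MHCII+CD11c+ controls, 162, 196 and 167 CPM in LYVE1+CX3CR1+ controls and 114, 248 and 110 CPM in MHCII+CD11c- controls. After IC it gave 355 and 430, then 160, 169 and 119, then 155, 139 and 194 CPM in the same order. Its log2 differences were -1.63 ± 0.24 and 1.78 ± 0.24 (edgeR adjusted p = 4.36e-05 and 4.1e-05). Nr4a1, at 527 to 1325 CPM over the controls, was not called.

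The phosphatases divided as well. Dusp6, which acts on ERK in the cytoplasm, gave 31.3, 30.1 and 31.0 CPM in MHCII+CD11c+ controls, 170, 108 and 158 CPM in LYVE1+CX3CR1+ controls and 155, 68.7 and 137 CPM in MHCII+CD11c- controls. After IC it gave 59.8 and 52.8, then 185, 141 and 171, then 152, 159 and 137 CPM. The MHCII+CD11c+ libraries were lowest under both treatments, and the log2 differences of Dusp6 in controls were 2.24 ± 0.24 for LYVE1+CX3CR1+ against MHCII+CD11c+ (edgeR adjusted p = 6.76e-07) and -1.97 ± 0.24 for MHCII+CD11c+ against MHCII+CD11c- (edgeR adjusted p = 1.09e-05). Dusp5, which acts on ERK in the nucleus, showed the reverse. It gave 190, 186 and 222 CPM in MHCII+CD11c+ controls, 25.0, 40.3 and 26.5 CPM in LYVE1+CX3CR1+ controls and 53.7, 77.9 and 46.5 CPM in MHCII+CD11c- controls. After IC Dusp5 gave 252 and 373, then 29.3, 13.5 and 5.81, then 44.6, 76.2 and 53.9 CPM. The log2 differences of Dusp5 in controls were -2.71 ± 0.36 (edgeR adjusted p = 8.01e-05) and 1.74 ± 0.36 (edgeR adjusted p = 0.00564). Dusp2 was lower in LYVE1+CX3CR1+ controls than in MHCII+CD11c+ controls by -1.81 ± 0.35 (edgeR adjusted p = 0.000907).

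**Figure D3:**
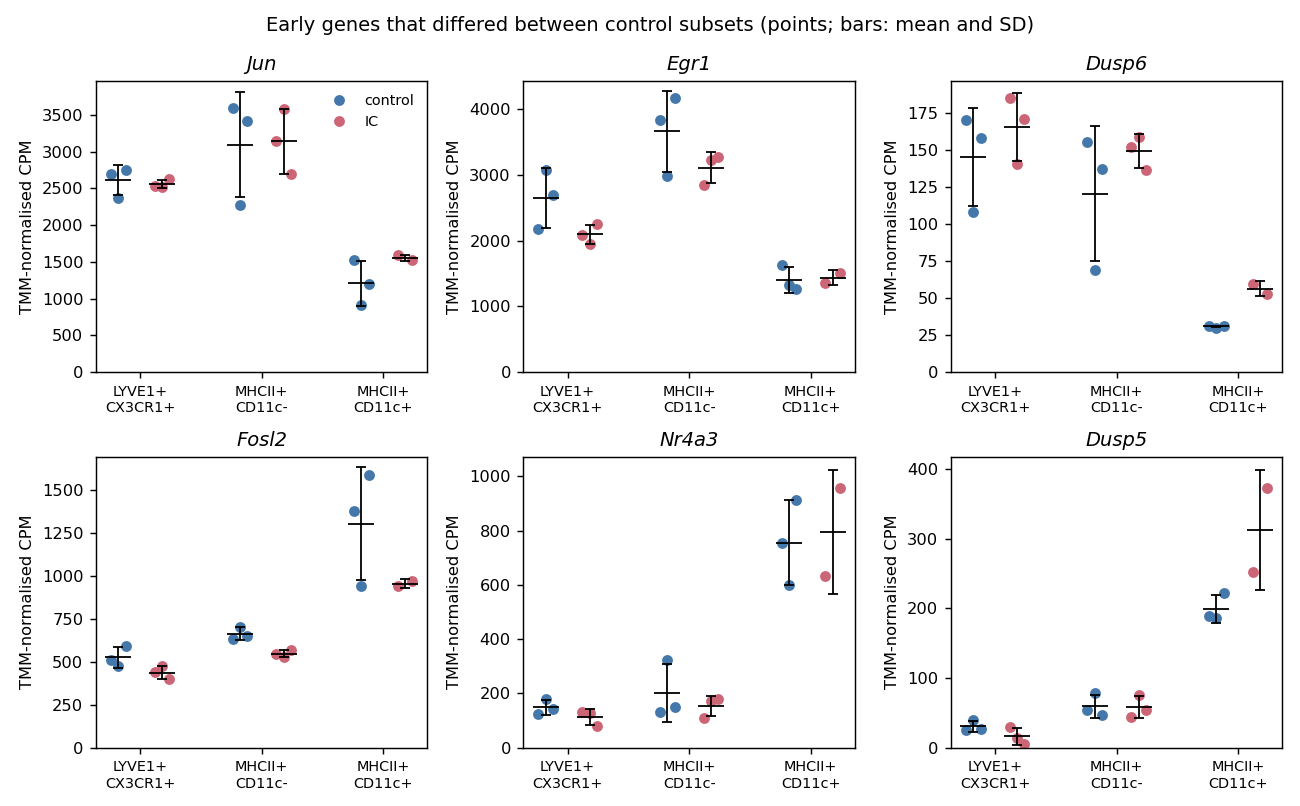
Level of Jun, Egr1, Dusp6, Fosl2, Nr4a3 and Dusp5 in each library (TMM-normalised CPM, vertical axis) by subset and treatment; points are libraries, bars the mean and SD. In controls, MHCII+CD11c+ libraries are lowest for Jun, Egr1 and Dusp6 (30.1 to 31.3 CPM) and highest for Fosl2, Nr4a3 and Dusp5 (186 to 222 CPM).

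Ier3, an inhibitor of cell death, was low in MHCII+CD11c+ macrophages, with 120, 142 and 117 CPM in controls and 201 and 179 CPM after IC. Ier3 gave 214, 151 and 279 against 255, 184 and 203 CPM in LYVE1+CX3CR1+ and 237, 232 and 293 against 216, 257 and 266 CPM in MHCII+CD11c- macrophages. The MHCII+CD11c+ controls lay below all other controls for Ier3, and the log2 differences were 0.76 ± 0.20 for LYVE1+CX3CR1+ against MHCII+CD11c+ (edgeR adjusted p = 0.00963) and -1.01 ± 0.20 for MHCII+CD11c+ against MHCII+CD11c- (edgeR adjusted p = 0.00194). Csrnp1, a nuclear protein first found as an axin target, was high there, with 566, 455 and 680 CPM in controls and 483 and 510 CPM after IC. Csrnp1 gave 200, 199 and 249 against 212, 236 and 291 CPM in LYVE1+CX3CR1+ and 286, 390 and 330 against 261, 231 and 197 CPM in MHCII+CD11c- macrophages. The MHCII+CD11c+ controls lay above all other controls for Csrnp1 (log2 differences -1.39 ± 0.18 and 0.76 ± 0.18, edgeR adjusted p = 9.36e-06 and 0.00914).

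The antiproliferative genes Btg1 and Btg2 were both lower in LYVE1+CX3CR1+ controls than in MHCII+CD11c+ controls. Btg1 gave 287, 222 and 272 CPM in LYVE1+CX3CR1+ controls, 339, 367 and 360 CPM in MHCII+CD11c- controls and 769, 620 and 832 CPM in MHCII+CD11c+ controls. After IC Btg1 gave 268, 186 and 139, then 327, 422 and 312, then 728 and 936 CPM. The 3 control groups did not overlap, and the log2 differences that passed were -1.51 ± 0.20 for LYVE1+CX3CR1+ against MHCII+CD11c+ (edgeR adjusted p = 1.14e-05) and 1.06 ± 0.20 for MHCII+CD11c+ against MHCII+CD11c- (edgeR adjusted p = 0.00124). Btg2 gave 456, 542 and 526 CPM in LYVE1+CX3CR1+ controls, 768, 847 and 827 CPM in MHCII+CD11c- controls and 1257, 894 and 1177 CPM in MHCII+CD11c+ controls. After IC Btg2 gave 453, 385 and 469, then 501, 722 and 574, then 769 and 994 CPM. Its log2 differences were -0.68 ± 0.17 for LYVE1+CX3CR1+ against MHCII+CD11c- (edgeR adjusted p = 0.0387) and -1.13 ± 0.17 against MHCII+CD11c+ (edgeR adjusted p = 4.36e-05), with no overlap. Zfp36l1, an mRNA decay factor, gave 124, 125 and 120 CPM in MHCII+CD11c+ controls, 282, 193 and 332 CPM in MHCII+CD11c- controls and 159, 182 and 196 CPM in LYVE1+CX3CR1+ controls. After IC Zfp36l1 gave 152 and 190, then 230, 280 and 227, then 147, 116 and 205 CPM. It was lower in MHCII+CD11c+ controls than in MHCII+CD11c- controls by -1.13 ± 0.21 (edgeR adjusted p = 0.000999), without overlap.

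Of the stress and feedback genes, Gadd45b, an activator of p38 signalling, was lowest in LYVE1+CX3CR1+ macrophages. It gave 190, 139 and 219 CPM in their controls, 349, 304 and 342 CPM in MHCII+CD11c- controls and 371, 324 and 467 CPM in MHCII+CD11c+ controls. After IC Gadd45b gave 134, 166 and 201, then 269, 312 and 276, then 426 and 438 CPM. No LYVE1+CX3CR1+ control overlapped another subset, and the log2 differences were -0.86 ± 0.19 (edgeR adjusted p = 0.0162) and -1.08 ± 0.19 (edgeR adjusted p = 0.000219). Ppp1r15a, which restarts translation after stress, gave 547, 526 and 619 CPM in LYVE1+CX3CR1+ controls, 842, 671 and 828 CPM in MHCII+CD11c- controls and 1119, 558 and 1023 CPM in MHCII+CD11c+ controls. After IC Ppp1r15a gave 679, 480 and 674, then 670, 691 and 675, then 732 and 786 CPM. It was called for LYVE1+CX3CR1+ against MHCII+CD11c+ (-0.67 ± 0.20, edgeR adjusted p = 0.0217) although these libraries overlapped. Cebpd, a C/EBP factor of the acute phase, gave 230, 139 and 201 CPM in MHCII+CD11c- controls, 111, 53.9 and 95.3 CPM in MHCII+CD11c+ controls and 121, 71.1 and 120 CPM in LYVE1+CX3CR1+ controls. After IC Cebpd gave 107, 136 and 145, then 69.5 and 52.2, then 83.1, 86.9 and 67.6 CPM. It was lower in MHCII+CD11c+ controls than in MHCII+CD11c- controls by -1.13 ± 0.26 (edgeR adjusted p = 0.00565), without overlap.

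**Figure D4:**
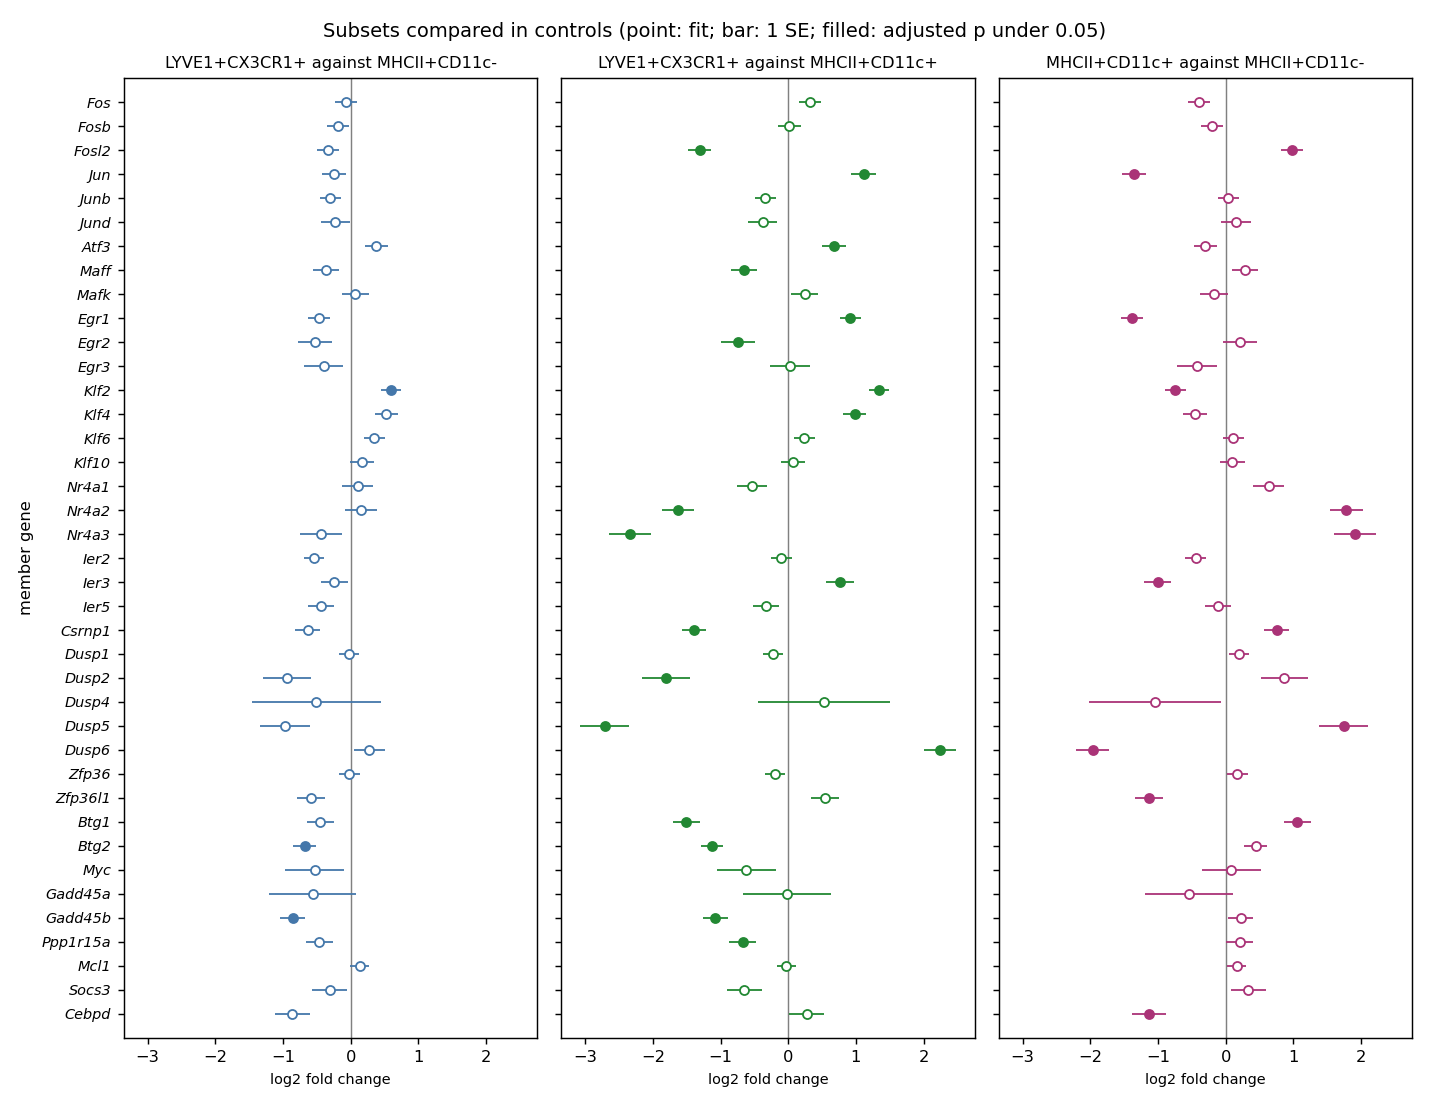
Log2 difference between subsets in control libraries for the 39 members (rows), one panel per pair of subsets (horizontal axis, with bars of 1 SE); filled points were called at an adjusted p under 0.05. There are 3 filled points for LYVE1+CX3CR1+ against MHCII+CD11c-, 19 against MHCII+CD11c+ and 13 for MHCII+CD11c+ against MHCII+CD11c-.

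Markers moved with these subset differences. The summed level of 8 macrophage markers was 1792 to 3639 CPM in MHCII+CD11c+ controls, 7909 to 9816 CPM in MHCII+CD11c- controls and 8703 to 11263 CPM in LYVE1+CX3CR1+ controls, and all 8 were called lower in MHCII+CD11c+ than in either other subset. Markers of the LYVE1+ subset summed to 57.5 to 581 CPM in MHCII+CD11c+ controls. The part of these markers in the differences of the early genes was not tested. In the IC comparison of LYVE1+CX3CR1+ macrophages, 5 markers of MHCII+ subsets summed to 66.4 to 119 CPM after IC and 299 to 673 CPM in controls, with 3 of 5 called lower. For MHCII+CD11c- macrophages the same markers summed to 12161 to 13812 CPM after IC and 18209 to 19935 CPM in controls, and 5 markers of the LYVE1+ subset to 1817 to 3293 and 988 to 1721 CPM, with 0 called by edgeR in either list. In MHCII+CD11c+ macrophages the macrophage markers summed to 3650 to 5269 CPM after IC and 1792 to 3639 CPM in controls (0 of 8 called), and 6 neutrophil markers to 25.6 to 29.7 and 74.3 to 252 CPM (0 of 6 called). On average over the subsets 4 of 5 markers of MHCII+ subsets and 1 of 6 neutrophil markers were called lower, and 2 of 8 macrophage markers and 1 of 5 markers of the LYVE1+ subset higher. The part of these shifts in the IC changes of Egr2, Egr3, Klf2, Dusp1 and Dusp2 was not tested. Over the 10 comparisons 23 members were called at least once: 21 between subsets, 5 after IC, and Egr2, Klf2 and Dusp2 in both. Some calls between subsets were less firm: of 17 alternative settings, the calls between LYVE1+CX3CR1+ and MHCII+CD11c- controls held under 4 for Klf2, 10 for Btg2 and 13 for Gadd45b. Those between LYVE1+CX3CR1+ and MHCII+CD11c+ controls held under 11 for Egr2, 12 for Maff, 11 for Ppp1r15a, 15 for Atf3 and 16 for Ier3, and those between MHCII+CD11c+ and MHCII+CD11c- controls under 14 for Csrnp1 and 16 for Cebpd. Without LYVE1+CX3CR1+ control 2, Atf3 stood at 0.55 (edgeR adjusted p = 0.0624). Without LYVE1+CX3CR1+ control 3, Ier3 stood at 0.49 (edgeR adjusted p = 0.149), and without MHCII+CD11c- control 1, Cebpd stood at -0.94 (edgeR adjusted p = 0.0608). The remaining calls in these comparisons held under all 17. The 16 members that were never called included Fos, Junb and Nr4a1. Mcl1, a survival factor of the Bcl2 family, had the smallest SD within groups, 0.13 on the log2 scale, and Dusp4 (0 to 10.7 CPM), Gadd45a and Myc the largest, at 1.31, 1.09 and 0.66.

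Related genes outside the set were read from lists of their own. Of 17 other bZIP factors of the AP-1, Atf and Maf families, 3 rose on average after IC and 0 fell: Cebpb by 0.94 ± 0.11 on the log2 scale, Jdp2 by 1.29 ± 0.16 and Cebpa by 0.46 ± 0.12 (1.7% of all genes were called higher). The Cebpa call was lost under 4 of 26 alternative settings, with an adjusted p (edgeR) of up to 0.121 without MHCII+CD11c+ IC 1. The counts were 1 higher in the LYVE1+CX3CR1+ subset, 2 in the MHCII+CD11c- subset and 0 in the MHCII+CD11c+ subset (0.963%, 0.701% and 0.216% of all genes in either direction), with 0 lower in each; the 1 in the LYVE1+CX3CR1+ subset, Cebpb, was lost under 7 of 16 settings, with an adjusted p (edgeR) of up to 0.138 without LYVE1+CX3CR1+ control 2. Between controls, Batf3 (-3.63 ± 0.76) and Batf (-2.25 ± 0.50) were lower in LYVE1+CX3CR1+ macrophages than in MHCII+CD11c+ macrophages, in a count of 2 higher and 3 lower. Crem was the 1 factor called between MHCII+CD11c+ and MHCII+CD11c- controls, higher in the former (1.48 ± 0.35). In the third pair of controls edgeR called 0 (5 at an unadjusted p under 0.05).

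Of 15 factors and coregulators upstream of early genes, Ets2 alone was called after IC, and on average only (0.48 ± 0.10, edgeR adjusted p = 0.00856; 0.0554 without MHCII+CD11c+ IC 1). Between controls, Mef2a was higher in LYVE1+CX3CR1+ macrophages than in the MHCII+CD11c- (1.15 ± 0.21) and MHCII+CD11c+ macrophages (1.92 ± 0.21), and so was Elk3, a partner of serum response factor (0.99 ± 0.25 and 2.20 ± 0.25). The list counted 2 higher and 0 lower, then 3 and 2, and for MHCII+CD11c+ against MHCII+CD11c- 1 and 3. Of 40 other early or delayed genes tested, 2 rose in LYVE1+CX3CR1+ and 2 in MHCII+CD11c- macrophages after IC and 0 in MHCII+CD11c+, and on average 2 rose and 2 fell. Of all genes, 0.963%, 0.701%, 0.216% and 3.35% were called there in either direction. Sik1, a kinase induced by cAMP, rose by 0.69 ± 0.10 on average and Per1, a clock gene also counted among glucocorticoid-induced genes, by 0.64 ± 0.11, while Cish, an inhibitor of STAT5 signalling, fell by 2.29 ± 0.62 and Arid5a by 0.56 ± 0.13. Between controls the counts were 0 higher and 4 lower, 5 and 7, and 7 and 3, in the order of the comparisons above. In the same order, 1.56%, 15.2% and 8.66% of all genes were called, which also applies to the upstream and bZIP lists.

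**Figure D5:**
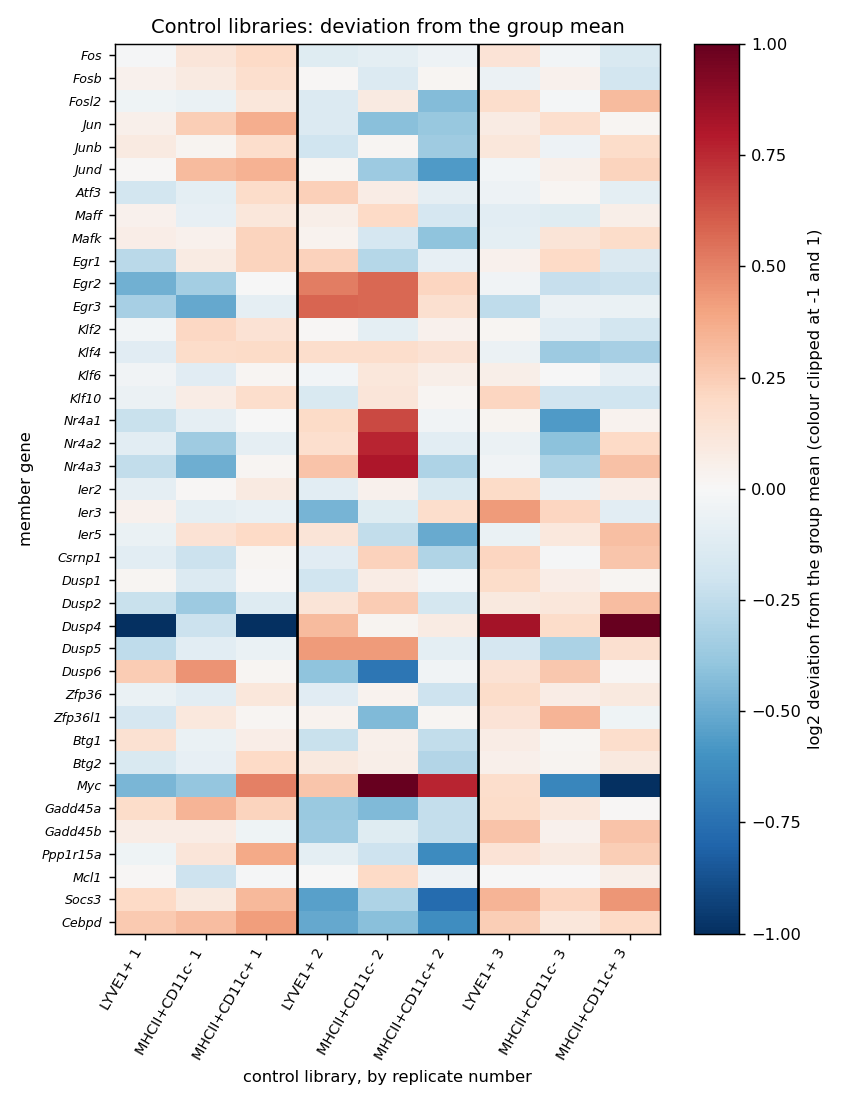
Deviation of each control library from its group mean for the 39 members (rows, log2 units, colours limited to the range from -1 to 1), with the 9 control libraries (columns) ordered by replicate number. Libraries of replicate 2 are below their group mean in all 3 subsets for Jun, Dusp6 and Cebpd and above it for Egr2, Egr3 and Myc.

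Control libraries with the same replicate number deviated together in these genes. Over the 39 members, deviations from the group mean correlated with r of 0.34 to 0.65 in all 9 pairs with the same number (median 0.46) and with -0.60 to 0.28 in the 18 other pairs. Deviations of 3 libraries sum to 0, so the pairs are not independent and lower values in the other pairs are built in. Over all genes the values were 0.007 to 0.286 and -0.150 to 0.067. Replicate 2 was the lowest control in all 3 subsets for 7 members (Jun, Dusp6, Gadd45a, Gadd45b, Ppp1r15a, Socs3 and Cebpd; 5.39% of all genes) and the highest for 3 (Egr2, Egr3 and Myc; 7.39% of all genes). The labels do not say what libraries of 1 number share.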

How the data were processed

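RNA was sequenced from 17 libraries, each made from 5 ng of total RNA. The authors trimmed reads with Trim Galore, checked them with FastQC, aligned them to mm10 (HISAT2) and made counts for each gene (featureCounts); the deposited values are raw counts without normalization. Tool versions, annotation and use of strand are not given in the sources used here, so reads of a gene and an antisense or overlapping gene cannot be told apart. The 17 tables of single libraries were identical to the joint table, which has 1 further column that matched no sample, summed to 0 and was not used.

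Counts were fitted with edgeR 4.0.16 in R 4.3.3 (filterByExpr with a minimum count of 10, TMM factors, robust quasi-likelihood fit) in 1 model of the 6 group means, with 11 residual degrees of freedom. There were 10 contrasts: IC against control in each subset and averaged over subsets, pairs of subsets in controls, and differences of IC responses. Calls were made at a Benjamini-Hochberg adjusted p under 0.05 over the 15272 genes tested. CPM use TMM library sizes, marker sums included, while shares of the counts of a library use its total counts. The precision at the range of total counts is given by the SE, a Wald value from the fit. The fit was tested on simulated data. Replicates were checked for duplicates: none agreed within counting noise (lowest chi-square per degree of freedom 6.77). Alternatives were DESeq2 1.42.0, limma 3.58.1 voom, sva 3.50.0, other scalings, filters and blocks, and leaving out libraries. Gene positions are from GENCODE M21 and promoters from RefSeq.

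The members, lists and tests were chosen with earlier results of these data known. Values per library are given for each member called in at least 1 contrast and for Fos, Jun, Junb, Egr1, Atf3, Nr4a1 and Dusp1. Of each list, up to 4 called genes with the smallest p per contrast could be named.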

Additional observations from a re-analysis of the deposited data

Results flagged for a closer look

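Maff moved in opposite directions after IC in LYVE1+CX3CR1+ and MHCII+CD11c+ macrophages, with every library of the subset on its side of the controls. The log2 fold change was -0.38 in LYVE1+CX3CR1+ macrophages (62.3 to 75.2 CPM after IC, 81.4 to 91.4 CPM in controls) and 0.24 in MHCII+CD11c+ macrophages (149 and 176 CPM after IC, 122 to 148 CPM in controls). Neither value passed edgeR's test (adjusted p = 0.413 and 1.0). The test of the difference itself gave -0.61 ± 0.30 on the log2 scale (edgeR adjusted p = 0.621) and did not pass.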

How the results depend on the processing

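Counts of members called in LYVE1+CX3CR1+ macrophages after IC were 2 in the reported fit (0 higher and 2 lower). DESeq2 called 4 (2 higher and 2 lower), and the fit with surrogate variables 4 (0 higher and 4 lower). The count was 1 with only the groups compared, 0 with limma voom and 1 without the control libraries numbered 2. Leaving out 1 library gave 0 to 2, with 0 when LYVE1+CX3CR1+ control 2 or IC 3 was left out and 1 when IC 2 was. In MHCII+CD11c- macrophages the count of 0 became 1 with limma voom and 1 without the control libraries numbered 2, and in MHCII+CD11c+ macrophages it became 1 with limma voom. The averaged count of 5 became 9 without the control libraries numbered 2 and ranged from 3 to 8 when 1 library was left out (8 without MHCII+CD11c+ control 2; 3 without LYVE1+CX3CR1+ control 1 or 2, MHCII+CD11c- control 3 or MHCII+CD11c+ IC 2). Between LYVE1+CX3CR1+ and MHCII+CD11c- controls the count of 3 became 6 with DESeq2, 11 with limma voom and 1 with surrogate variables, and ranged from 0 to 4 when 1 library was left out, with 0 without LYVE1+CX3CR1+ control 1 or 2 or MHCII+CD11c- control 1 or 3 and 1 without LYVE1+CX3CR1+ control 3. The other counts between subsets stayed between 16 and 22 (reported 19) and between 11 and 15 (reported 13), and the differences of responses stayed at 0. No called difference of a member or of a named list gene changed sign. The median log2 change over the 39 members did. After IC in LYVE1+CX3CR1+ macrophages it was -0.02 as reported and 0.07 with DESeq2 or its size factors. It was also positive with no filter on low counts (0.04), only the groups compared (0.05) and equal depth (0.03). With limma voom (-0.07), surrogate variables (-0.13), the replicate block (-0.02) and the length offset (-0.02) it was negative. Between MHCII+CD11c+ and MHCII+CD11c- controls it was 0.10 as reported and -0.02 without MHCII+CD11c+ control 1. The cause of these shifts was not tested. Leaving out the control libraries numbered 2 and an offset for gene length were chosen after seeing the data, and the fit with only the groups compared was not run for the average.

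Replicate numbers are shared across groups. With the replicate block the counts were 2, 0 and 0 after IC by subset, 6 on average, and 3, 20 and 14 between subsets; with the block within treatment they were 4, 20 and 14 between subsets. The calls gained were Dusp6 on average (0.49), Cebpd in the first comparison of subsets (-0.88, within treatment), Socs3 in the second (-0.63) and Nr4a1 in the third (0.69), and none was lost. Over all genes only 2 of 9 control pairs with the same number correlated above 0.1, while over the 39 members all 9 did. The labels give no shared source, so the numbers were not treated as pairing in the reported fit.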

Other observations

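Lists of genes outside the early set also moved with IC. Of 8 genes induced by glucocorticoids, 3 rose in the LYVE1+CX3CR1+ subset, 4 in the MHCII+CD11c- subset and 2 in the MHCII+CD11c+ subset, 4 rose on average, and 0 fell. Of all genes, 0.963%, 0.701%, 0.216% and 3.35% were called in these comparisons in either direction. Fkbp5, which encodes a chaperone of the glucocorticoid receptor, rose by 3.40 ± 0.33, 3.61 ± 0.33 and 2.32 ± 0.37 on the log2 scale, and Tsc22d3, which encodes GILZ, by 0.94 ± 0.20, 1.46 ± 0.20 and 1.28 ± 0.23. The list summed to 690 to 900 CPM in the 9 control libraries and to 1077 to 2145 CPM in the 8 IC libraries, without overlap. Per1, one of the genes that rose, is also counted among the other early or delayed genes of the report.

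Of 11 heat shock genes, 2, 4 and 0 rose in the subsets in the same order and 5 on average, with 0 lower. The shares of all genes are those given for the glucocorticoid list. Hspa8, a constitutive chaperone, rose by 0.63 ± 0.09 on average (edgeR adjusted p = 0.000151) and Hsp90ab1 by 0.44 ± 0.08 (edgeR adjusted p = 0.00351). Hspa1a and Hspa1b rose by 0.96 ± 0.11 and 1.15 ± 0.12, but these near-identical genes share reads, so the split between them is uncertain. The list summed to 6885 to 9283 CPM in controls and 9753 to 16227 CPM after IC.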
